A study of Mus musculus with 72 samples.

Results

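Acetylation of histone H3 at lysine 27 (H3K27ac) was compared between 8 and 4 months of age in neuronal nuclei of the mouse forebrain. The comparison rests on 8 of the 72 samples of the series, which are all the neuronal H3K27ac chromatin immunoprecipitation sequencing (ChIP-seq) libraries: 4 from 8 months and 4 from 4 months, with genotype as a covariate and the 2 input libraries left out of the fit. The 4 groups of 2 replicates were C57BL/6 mice of genotype WT at 4 months, WT at 8 months, SgshKO at 4 months and SgshKO at 8 months. SGSH, the product of Sgsh, is a sulfatase of the lysosome that acts on heparan sulfate. Both genotypes enter each age in equal number.

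H3K27ac is placed by the acetyltransferases CBP and p300 on the nucleosomes that flank active promoters and enhancers. In neurons, electrical activity and calcium entry induce a small set of genes quickly, among them transcription factors of the Fos, Egr and Nr4a families and later effectors such as Bdnf, and H3K27ac at their enhancers is known to rise with stimulation. Promoters of widely used genes, by contrast, mostly lie in CG-rich sequence and carry the mark in many cell types.

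Nuclei were sorted as NEUN+ and negative for PU.1 and OLIG2, and were fixed before the immunoprecipitation. The labels do not say whether the 2 replicates of a group came from separate mice, so p-values measure only the spread between these samples, which may be technical. Values are tags per 10000000 tags of the library, scaled by the TMM method, in 800-bp windows centred on open-chromatin sites of neurons. A peak is called a promoter peak when its centre lies within 1000 bp of a transcription start site, and distal otherwise. Peaks were called with limma at an adjusted p below 0.05, and log2 changes are on the scale of log2(value + 1).

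The number of CG dinucleotides went with the losses at promoters, as described further on, and 8 RefSeq promoter windows are shown as examples, each lying wholly inside a called peak and running from 250 bases before to 50 after a start site (build GRCm38.p6). CG dinucleotides are in capitals. The first 4 belong to promoter peaks that were higher at 8 months, namely Per1 (chr11:69099902-69100201, plus strand), Rgs2 (chr1:144004100-144004399, minus strand), Dusp6 (chr10:99262981-99263280, plus strand) and Celf3 (chr3:94478045-94478344, plus strand), and hold 21, 33, 19 and 4 CG dinucleotides. The other 4 belong to promoter peaks that were lower, namely Ran (chr5:129019906-129020205, plus strand), Dnmt3a (chr12:3806730-3807029, plus strand), Zmynd11 (chr13:9764421-9764720, minus strand) and Psap (chr10:60277378-60277677, plus strand), and hold 58, 46, 48 and 23. They are printed 5′ to 3′ on the strand of the gene.
Per1: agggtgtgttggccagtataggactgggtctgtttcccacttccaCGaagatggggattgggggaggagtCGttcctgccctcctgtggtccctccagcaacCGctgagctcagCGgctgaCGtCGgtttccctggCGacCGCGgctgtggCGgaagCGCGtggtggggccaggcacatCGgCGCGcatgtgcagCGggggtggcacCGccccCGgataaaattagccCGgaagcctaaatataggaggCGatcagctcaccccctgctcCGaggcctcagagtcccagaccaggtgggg
Rgs2: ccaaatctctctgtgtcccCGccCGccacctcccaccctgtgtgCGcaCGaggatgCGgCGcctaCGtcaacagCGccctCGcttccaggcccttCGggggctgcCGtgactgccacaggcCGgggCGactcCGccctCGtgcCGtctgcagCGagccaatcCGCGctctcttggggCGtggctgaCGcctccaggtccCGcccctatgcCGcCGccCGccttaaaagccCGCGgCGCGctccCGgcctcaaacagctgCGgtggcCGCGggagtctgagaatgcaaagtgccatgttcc
Dusp6: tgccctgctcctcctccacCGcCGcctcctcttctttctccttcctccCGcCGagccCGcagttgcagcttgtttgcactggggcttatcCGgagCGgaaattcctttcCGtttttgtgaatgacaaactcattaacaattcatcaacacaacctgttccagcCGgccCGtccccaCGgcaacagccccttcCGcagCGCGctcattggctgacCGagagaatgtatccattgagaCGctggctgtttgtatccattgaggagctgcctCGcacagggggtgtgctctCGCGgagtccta
Celf3: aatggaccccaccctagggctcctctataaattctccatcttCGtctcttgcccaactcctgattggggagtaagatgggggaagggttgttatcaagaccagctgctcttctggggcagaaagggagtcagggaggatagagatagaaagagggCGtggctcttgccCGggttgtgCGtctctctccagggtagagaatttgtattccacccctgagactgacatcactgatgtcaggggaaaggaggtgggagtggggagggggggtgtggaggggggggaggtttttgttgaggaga
Ran: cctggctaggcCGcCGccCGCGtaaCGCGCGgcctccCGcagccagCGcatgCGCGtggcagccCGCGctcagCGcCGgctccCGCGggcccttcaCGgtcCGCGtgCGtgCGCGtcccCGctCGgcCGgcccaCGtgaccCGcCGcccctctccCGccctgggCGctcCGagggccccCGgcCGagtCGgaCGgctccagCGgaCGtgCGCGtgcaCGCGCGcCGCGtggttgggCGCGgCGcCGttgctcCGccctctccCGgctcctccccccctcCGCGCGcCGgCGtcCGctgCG
Dnmt3a: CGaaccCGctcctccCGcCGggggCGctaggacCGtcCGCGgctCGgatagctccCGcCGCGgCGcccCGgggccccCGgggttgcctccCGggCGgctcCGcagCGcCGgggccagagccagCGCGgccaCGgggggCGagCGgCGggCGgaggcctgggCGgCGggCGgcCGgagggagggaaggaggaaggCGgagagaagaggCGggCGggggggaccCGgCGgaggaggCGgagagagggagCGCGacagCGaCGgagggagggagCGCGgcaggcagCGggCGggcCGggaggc
Zmynd11: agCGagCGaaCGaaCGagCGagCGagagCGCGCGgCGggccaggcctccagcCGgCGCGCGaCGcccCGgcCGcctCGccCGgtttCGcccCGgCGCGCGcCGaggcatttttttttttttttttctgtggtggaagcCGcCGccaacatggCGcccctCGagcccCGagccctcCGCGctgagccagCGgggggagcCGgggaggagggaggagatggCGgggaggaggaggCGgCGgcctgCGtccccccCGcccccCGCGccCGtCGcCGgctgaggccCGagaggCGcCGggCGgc
Psap: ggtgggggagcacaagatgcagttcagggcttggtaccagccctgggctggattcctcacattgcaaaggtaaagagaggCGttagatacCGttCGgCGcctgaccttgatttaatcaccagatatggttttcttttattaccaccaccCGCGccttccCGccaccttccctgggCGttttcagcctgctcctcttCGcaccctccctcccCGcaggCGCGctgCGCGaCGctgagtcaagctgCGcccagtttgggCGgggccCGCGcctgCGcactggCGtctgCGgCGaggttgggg

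Library depth differed with age. The 4-month ChIP libraries held 6059671 to 18798451 tags and the 8-month libraries 29935943 to 35485716.5, without overlap (exact permutation test over 70 splits, two-sided, p = 0.0286). This p is the smallest possible, and the adjusted p over 5 library measures was 0.0476 (exact permutation test). The values of the 8-month libraries moved in steps of 0.5 tags and those of the 4-month libraries in steps of 1 tag. Age cannot be told apart from this step or from depth. The share of tags in peaks was 38.4% ± 1.30 (SD, n = 4) at 4 months and 39.7% ± 1.11 (SD, n = 4) at 8 months, a difference within the spread of libraries (exact permutation p = 0.229, adjusted p = 0.286). SgshKO 4-month replicate 1 stood apart on the first principal component, with a score of 240.4 against -59.5 to -25.9 in the other 7; without it 369 peaks were called. On the second component WT 4-month replicate 2, the library with the fewest tags, stood apart, with a score of 203.3 against -83.0 to 20.5 in the others. The first and second components held 24.4% and 19.4% of the variance. All 16 pan-neuronal genes had a tested promoter peak, and their summed level was 1806 to 1850 at 4 months and 1731 to 1811 at 8 months. Of the 18 microglial marker genes, 2 had a tested promoter peak (summed level 4.48 to 25.1 at 4 months and 18.2 to 23.8 at 8 months), of 18 oligodendrocyte markers 8 (86.3 to 155 and 105 to 158), of 8 oligodendrocyte precursor markers 4 (109 to 167 and 98.8 to 128), of 14 astrocyte markers 7 (317 to 340 and 285 to 328) and of 12 endothelial and mural markers 0. None of these promoter peaks was called, against 0.786% of all promoter peaks in either direction, and their part in the results below was not tested. In sorted bulk nuclei, fewer nuclei of a type and less H3K27ac per nucleus cannot be told apart.

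Between 4 and 8 months, H3K27ac rose at 122 and fell at 162 of 98038 tested peaks, which is 0.29% of them in all, 0.124% higher and 0.165% lower. The gains and losses lay at different kinds of sites. Of the 162 lower peaks, 144 were promoter peaks (88.9%) and 18 distal, whereas 33 of the 122 higher peaks were promoter peaks (27%) and 89 distal. Among all tested peaks 23% were promoter peaks. As a share of their class, 0.64% of 22507 promoter peaks were lower and 0.147% higher, and 0.0238% of 75531 distal peaks were lower and 0.118% higher. The median log2 change was -0.71 over the lower and 0.85 over the higher peaks, and 17 lower and 37 higher peaks passed a 2-fold change. Ages did not overlap at 105 of the 122 higher and 157 of the 162 lower peaks, against 6.01% of all tested peaks (3.23% higher and 2.78% lower). The called peaks were chosen by their age difference in the same libraries, which favours this. Called peaks that overlap share tags: the 122 higher peaks formed 107 separate regions and the 162 lower peaks 137. The calls touched 231 nearest genes, of which 95 had only higher, 135 only lower and 1, the mannosidase gene Man1a2, both.

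The number of calls depended on single libraries and on the scaling. Leaving out an SgshKO library of 8 months gave 20 calls (replicate 1) or 6 (replicate 2), and leaving out replicate 2 of WT at 8 months gave 59. For WT at 4 months it was 509 with replicate 1 left out and 94 with replicate 2 left out, and for SgshKO at 4 months 111 with replicate 2 left out. For either of the other 2 libraries the count stayed within 1.5 times the full one. With scaling by library total in place of TMM, 163 peaks were higher and 78 lower, so higher peaks made up 67.6% of the calls in place of 43.0%, and the 144 lower promoter peaks became 68. With every library thinned to the depth of the smallest, 47 peaks were called, 18 higher and 29 lower. The direction of each of the 284 peaks was kept under every alternative that measured it, which the choice of the peaks favours.

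**Figure D1:**
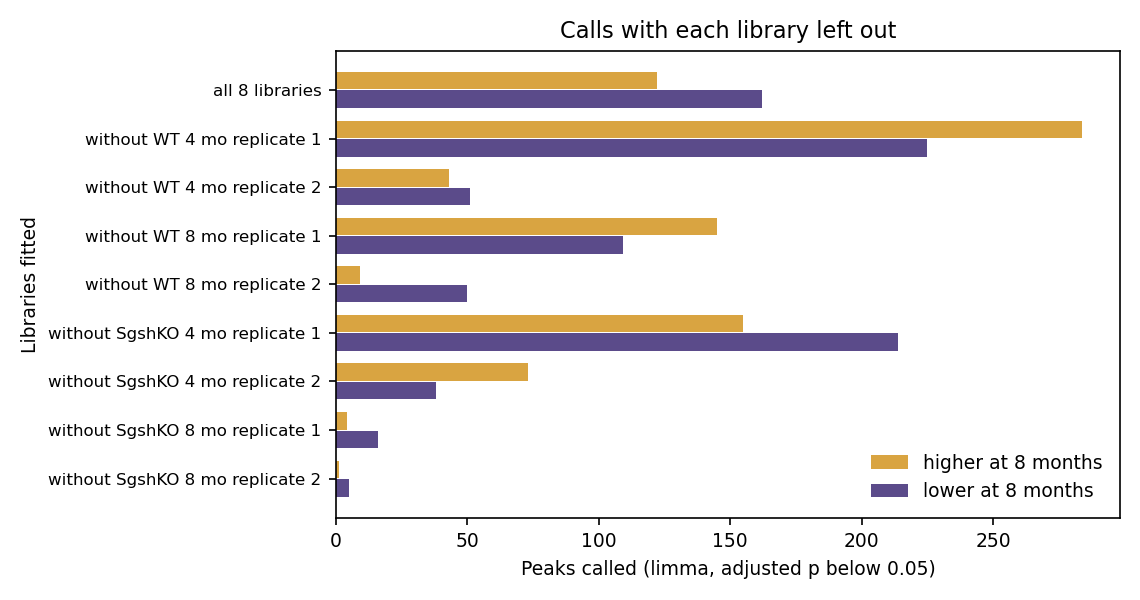
Horizontal bars give the number of neuronal H3K27ac peaks called higher (yellow) or lower (purple) at 8 than at 4 months with all 8 libraries and with each library left out in turn. The count runs from 6 without SgshKO 8-month replicate 2 to 509 without WT 4-month replicate 1.

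Within a single genotype, where 2 libraries stand against 2, limma called 0 peaks for age in WT (6900 at an unadjusted p under 0.05, edgeR 0, DESeq2 21) and 0 in SgshKO (8282 at an unadjusted p under 0.05, edgeR 26, DESeq2 306). The age by genotype interaction, which tests whether the ages differ by another amount in SgshKO than in WT, also had 0 calls (4544 at an unadjusted p under 0.05, edgeR 0, DESeq2 0). At the called peaks, which were chosen on the age effect of both genotypes together and so favour like changes in both, the values per genotype are a description. Over the lower peaks the median log2 change was -0.69 in WT and -0.75 in SgshKO, and over the higher peaks 0.80 and 0.84. An interaction p under 0.05 was found at 7 of the 162 lower and 3 of the 122 higher peaks.

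Genes that neurons induce on stimulation, in a list chosen with earlier results of these data known, gained H3K27ac at several sites. The shares given for this list are therefore a description. Of the 340 tested peaks nearest to 23 activity-regulated genes, 6 rose and 0 fell (1.76% higher, against 0.124% of all tested peaks), and the median log2 change was 0.22 against 0.06 over all peaks. The peaks lay at Nr4a1 and Nr4a3, nuclear receptors of the immediate early response, at Bdnf, which encodes the growth factor BDNF, and at Per1, a clock gene that cAMP and calcium also induce. Of the 340 peaks, 72.1% were above 0, against 55.9% of all tested peaks, and the median over a gene's own peaks was above 0 for 22 of the 23 genes and below 0 for Jun (-0.17). Over all promoter peaks 0.786% were called in either direction, and 10346 of the 98038 tested peaks had an unadjusted p under 0.05 by limma. At the promoter peak nearest each listed gene's start, 0 of 23 passed limma's threshold (3 at an unadjusted p under 0.05), 14 were above 0 and the median was 0.09. The summed level of these 23 peaks overlapped between the ages (2623 to 2897 at 4 months and 2507 to 3709 at 8 months). Their median level was 127. Distal and promoter peaks were each split into 4 classes of like size by level. The strongest class held 78 of the 89 higher distal and 24 of the 33 higher promoter peaks, and for promoter peaks it began at 90.8. The share of 0.124% over all tested peaks is not matched for level. The 6 calls fell to 0 when either SgshKO library of 8 months, or replicate 2 of WT at 8 months, was left out. They were 1 when replicate 2 of WT at 4 months and 2 when replicate 2 of SgshKO at 4 months was left out. They became 12 once replicate 1 of WT at 8 months was left out, and 0 with thinned libraries.

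Nr4a1 had 2 called peaks, both upstream of its start site. At the peak at -1097 bp from that site (chr15:101265349-101266149) the level was 35.7 and 15.1 (WT) and 35.9 and 26 (SgshKO) at 4 months, and 47.3 and 113 (WT) and 82.6 and 60.1 (SgshKO) at 8 months. All 8-month libraries lay above all 4-month libraries (log2 change 1.40 ± 0.27 (SE), limma adjusted p = 0.0116). At the peak at -10513 bp (chr15:101255933-101256733) the level was 16.6 and 30.1 (WT) and 20.7 and 23 (SgshKO) at 4 months, and 41.9 and 59.7 (WT) and 45.3 and 59.8 (SgshKO) at 8 months, again with no overlap between the ages (log2 change 1.17 ± 0.27 (SE), limma adjusted p = 0.0395). The peak over the Nr4a1 start site itself did not differ beyond the spread (107 to 192 at 4 months and 132 to 221 at 8 months; log2 change 0.09 ± 0.15 (SE), limma adjusted p = 0.882). The promoter peaks at -531 and 942 bp changed by 0.45 and 0.89 and were not called (limma adjusted p = 0.173 and 0.139).

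At Bdnf, 1 of 7 tested promoter peaks was called. This gene has several alternative promoters, and the called peak (chr2:109693114-109693914) lies at -49 bp from the start of transcript NM_001316310. Its level was 31.8 and 16.7 (WT) and 26.9 and 44.7 (SgshKO) at 4 months, and 54.8 and 64.4 (WT) and 66.9 and 68.1 (SgshKO) at 8 months, so each 8-month library exceeded each 4-month library (log2 change 1.13 ± 0.25 (SE), limma adjusted p = 0.0304). The log2 changes at the other 6 Bdnf promoter peaks ran from 0.03 to 0.63, and none passed the test. At Nr4a3, the peak at -991 bp (chr4:48043914-48044714) had levels of 106 and 93.7 (WT) and 115 and 84.1 (SgshKO) at 4 months, and 149 and 244 (WT) and 183 and 132 (SgshKO) at 8 months (log2 change 0.79 ± 0.16 (SE), limma adjusted p = 0.0166), with the ages apart and WT 8-month replicate 2 highest. The Nr4a3 promoter peaks at -225 bp, and at -654 bp from a further start, were not called (log2 changes 0.11 and -0.20, limma adjusted p = 0.831 and 0.913).

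Per1 had a called promoter peak (chr11:69099629-69100429, at -123 bp from a start) and a called distal peak at -3050 bp (chr11:69095499-69096299). The promoter peak had a level of 177 and 164 (WT) and 174 and 141 (SgshKO) at 4 months, and 224 and 264 (WT) and 245 and 228 (SgshKO) at 8 months (log2 change 0.55 ± 0.12 (SE), limma adjusted p = 0.0341), with no overlap. The distal peak ranged from 58.6 to 101 at 4 months and 92.5 to 209 at 8 months (log2 change 0.79 ± 0.19 (SE), limma adjusted p = 0.0428), and there WT 8-month replicate 1 fell within the 4-month range. Fos, the prototype of the immediate early genes, did not pass the threshold. At its start site (chr12:85473456-85474256) the level was 59.9 and 35.1 (WT) and 24.1 and 29 (SgshKO) at 4 months, and 39.5 and 165 (WT) and 103 and 56.3 (SgshKO) at 8 months. WT 8-month replicate 1 and SgshKO 8-month replicate 2 lay below WT 4-month replicate 1 there (log2 change 1.15 ± 0.28 (SE), limma adjusted p = 0.0546; the range over the alternatives was 0.00131 to 0.405). The start-site peaks of Npas4, an activity-induced transcription factor (162 to 199 at 4 months and 117 to 259 at 8 months), and of Arc, a regulator of synaptic receptors (102 to 154 at 4 months and 117 to 130.3 at 8 months), overlapped between ages, with log2 changes of 0.03 and -0.07. The other promoter peaks changed by 0.08, 0.31 and 0.46 at Npas4 and by 0.38 and 0.48 at Arc, and none was called. The median log2 change was 0.31 over 12 tested Npas4 peaks and 0.25 over 24 Arc peaks.

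**Figure D2:**
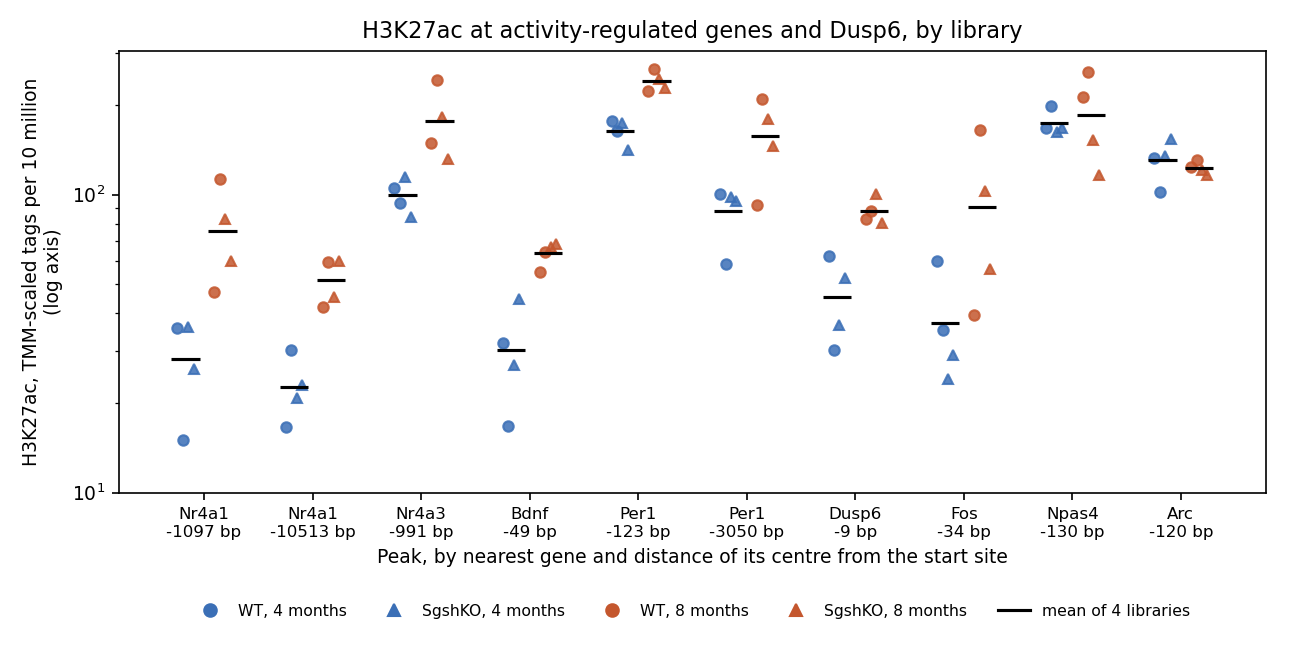
The level of H3K27ac (log axis) at 10 peaks, of activity-regulated genes and of Dusp6, which is outside that list, in each of the 8 libraries, with circles for WT, triangles for SgshKO, blue for 4 and orange for 8 months, and black bars for the mean of 4 libraries. The ages do not overlap at both Nr4a1 peaks, Nr4a3, Bdnf, the Per1 promoter peak and Dusp6, whereas they overlap at Per1 -3050, Fos, Npas4 and Arc.

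Some genes outside that list were picked from the higher calls after their values were seen. Dusp6, a phosphatase that dampens ERK signalling, had 2 called promoter peaks. At the one over its start site (chr10:99262822-99263622) the level was 30.1 to 62.4 at 4 months and 80.4 to 100.5 at 8 months, with no overlap (log2 change 0.99 ± 0.22 (SE), limma adjusted p = 0.0284). Rgs2, a regulator of G-protein signalling, rose by 0.77 at its promoter (68.9 to 96.9 at 4 months and 129 to 169 at 8 months, adjusted p = 0.0216 by limma). Distal peaks near Vgf, a neuropeptide precursor, Spred1, an inhibitor of the Ras pathway, and Dusp3, a further phosphatase, rose by 1.33, 1.57 and 0.79. At the higher peaks as a whole, WT 8-month replicate 1 was the lowest of the 8-month libraries at 86 of 122 (70.5%). At the lower peaks it was the 8-month library nearest the 4-month ones at 30 of 162 (18.5%).

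Among higher promoter peaks whose ages did not overlap, those with the smallest p, 1 per gene, belonged to R3hdm2, Prmt8, Hspa8, Lncpint, Celf3 and Gpr162. At R3hdm2 (chr10:127420006-127420806) the level was 82.8 and 48.5 (WT) and 65.0 and 60.5 (SgshKO) at 4 months, and 111 and 133 (WT) and 143 and 129 (SgshKO) at 8 months, and the ages did not overlap (log2 change 1.01 ± 0.18 (SE), limma adjusted p = 0.00789). Prmt8 is an arginine methyltransferase found mainly in brain, and its promoter peak rose, ranging from 149 to 168 at 4 months and 231 to 282 at 8 months (log2 change 0.67). Hspa8, the constitutive heat shock protein HSC70, had 2 called peaks, of 243 to 327 at 4 months and 376 to 423 at 8 months at the peak at -875 bp and 110.4 to 160.3 at 4 months and 173 to 198 at 8 months at the peak at -348 bp. No other of the 11 heat shock promoters tested was called. Over all promoter peaks 0.147% were higher and 0.786% were called in either direction. Celf3, an RNA-binding splicing factor of neurons, Lncpint, a long non-coding RNA, and Gpr162, an orphan receptor, rose by 0.67, 0.57 and 0.50.

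Several gains lay close together at single loci. Pde10a, a cyclic nucleotide phosphodiesterase that is abundant in striatal projection neurons, had 5 called peaks upstream of one of its starts, 3 of them overlapping. At the one with the smallest p (chr17:8523776-8524576, at -2625 bp) the level was 144 and 102 (WT) and 87.4 and 140.3 (SgshKO) at 4 months, and 153 and 263 (WT) and 261 and 265 (SgshKO) at 8 months, with WT 8-month replicate 1 just above the 4-month range (log2 change 0.98 ± 0.16 (SE), limma adjusted p = 0.00553). One of the 5 was a promoter peak, at -564 bp (log2 change 0.84, limma adjusted p = 0.0122). Over all 54 tested Pde10a peaks the median log2 change was 0.11, and 31 were above 0. The listed striatal markers were otherwise read at the promoter peak nearest each gene's annotated start. For Pde10a that is another peak, with a mean level of 108 at 4 months and 81.5 at 8 months. None of the 11 striatal marker peaks read in this way was called (0.786% of all promoter peaks were), and their summed level was 398 to 600.5 at 4 months and 344 to 469 at 8 months. Hivep2, a zinc-finger transcription factor, also had 5 called peaks, with log2 changes of 0.59 to 0.78, and 3 lay near Mroh4 (both picked after their values were seen), 74.0 to 78.8 kb from the promoter peak of Arc. Among higher distal peaks whose ages did not overlap, the others with the smallest p lay near Gramd1b (0.93), Apol7a (1.04), Cdyl2 (1.41), Adtrp (1.08) and Zbtb16 (0.75). The largest fold changes were at distal peaks with few tags at 4 months, such as that nearest Rars, picked after its values were seen (0 to 7.26 at 4 months and 10.1 to 24.4 at 8 months, against 5.40 and 5.09 in the 4- and 8-month inputs), where the 4-month level was near that of the inputs.

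Most losses lay at promoters. Among lower promoter peaks whose ages did not overlap, the 6 with the smallest p, 1 per gene, were at Gpr27, Zmynd11, Dnmt3a, Ypel5, Arid1a and Ran. In each the 4 libraries of 8 months lay below the 4 of 4 months, which this choice required. At Gpr27, an orphan receptor of brain (chr6:99692428-99693228), the level was 119.7 and 169 (WT) and 166 and 169 (SgshKO) at 4 months, and 78.0 and 78.5 (WT) and 76.8 and 68.4 (SgshKO) at 8 months (log2 change -1.03 ± 0.16 (SE), limma adjusted p = 0.00553). At Zmynd11, a reader of methylated histone H3.3 (chr13:9764079-9764879), it was 162 and 151 (WT) and 172 and 163 (SgshKO) at 4 months, and 77.8 and 86.5 (WT) and 102 and 73.5 (SgshKO) at 8 months (log2 change -0.93 ± 0.16 (SE), limma adjusted p = 0.00553). The lowest 4-month library at Gpr27 was WT replicate 1, which still lay above every 8-month library.

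Dnmt3a, the DNA methyltransferase that lays down non-CG methylation in maturing neurons, had 3 called and overlapping promoter peaks. At the centre of them (chr12:3806581-3807381) the level was 303 and 315 (WT) and 322 and 331 (SgshKO) at 4 months, and 181 and 221 (WT) and 182 and 212 (SgshKO) at 8 months (log2 change -0.68 ± 0.11 (SE), limma adjusted p = 0.00553). Arid1a encodes a subunit of the BAF remodelling complex, and the peak at its promoter had levels of 220.3 to 261 at 4 months and 107 to 159.7 at 8 months (log2 change -0.78 ± 0.13 (SE), limma adjusted p = 0.00567). Ran, the GTPase of nuclear transport, had 167 to 217 at 4 months and 84.3 to 119.9 at 8 months (log2 change -0.86 ± 0.15 (SE), limma adjusted p = 0.00567). Ypel5 had 210.1 to 356 at 4 months and 136 to 157 at 8 months (log2 change -0.78 ± 0.13 (SE), limma adjusted p = 0.00553). With GC content taken out of each library, a fit described further on, the Dnmt3a peak missed the threshold (log2 change -0.48, limma adjusted p = 0.056).

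Of the 32 tested promoter peaks of the synaptic gene list, 2 fell. Bsn, a scaffold of the presynaptic active zone, fell and ranged from 177 to 232 at 4 months and 116 to 146 at 8 months (log2 change -0.62, limma adjusted p = 0.029). Camk2b, a subunit of the kinase CaMKII, fell and ranged from 218 to 304 at 4 months and 154 to 182 at 8 months (log2 change -0.56, limma adjusted p = 0.0311). Among 26 tested promoters of voltage-gated channels only Cacna2d1, the calcium channel subunit that binds gabapentin, was called (317 to 455 at 4 months and 247 to 312 at 8 months; log2 change -0.50, limma adjusted p = 0.018), with no overlap between the ages. Over all promoter peaks 0.786% were called in either direction and 0.64% were lower. With GC content taken out, these 3 calls ended: the log2 change was -0.51 at Bsn, -0.39 at Camk2b and -0.32 at Cacna2d1, with limma adjusted p of 0.0732, 0.147 and 0.181.

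Psap, the precursor of the saposins that activate lysosomal lipid hydrolases, was the only one of 44 tested lysosomal promoters to be called; 0.64% of all promoter peaks were lower. Its level was 264 and 316 (WT) and 267 and 245 (SgshKO) at 4 months, and 170.0 and 174 (WT) and 180.1 and 167 (SgshKO) at 8 months, with no overlap (log2 change -0.65 ± 0.12 (SE), limma adjusted p = 0.0085). Over the 44 promoters, 16 log2 changes were above 0 and the median was -0.09, against -0.06 over all promoter peaks. The Sgsh promoter peak was near the level of the inputs in all groups (1.68 to 10.2 at 4 months and 1.57 to 5.92 at 8 months, against 3.38 and 1.09 in the inputs), and was not called. The mark at this promoter does not check the knockout. Cnr1, the main cannabinoid receptor of brain, picked after its values were seen, fell at its promoter and ranged from 211 to 261 at 4 months and 106 to 153 at 8 months (log2 change -0.74, limma adjusted p = 0.0085).

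**Figure D3:**
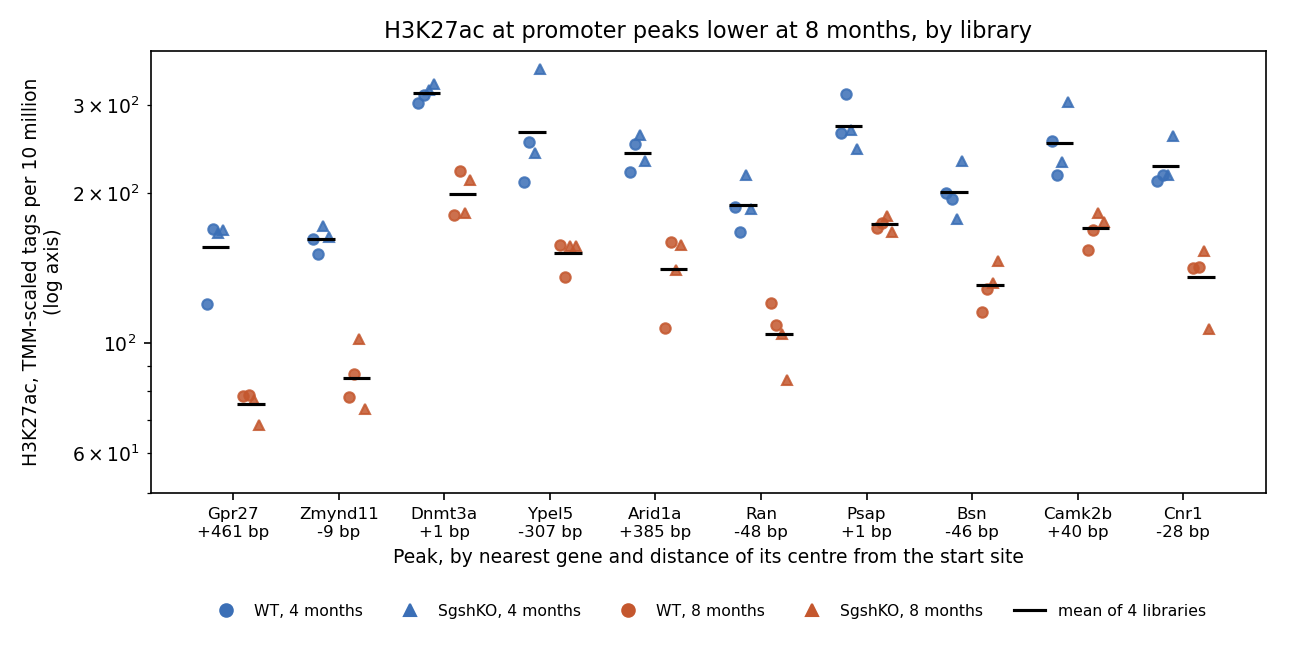
The level of H3K27ac (log axis) at 10 promoter peaks that were lower at 8 months, in each of the 8 libraries, with circles for WT, triangles for SgshKO, blue for 4 and orange for 8 months, and black bars for the mean of 4 libraries. At each of the 10 peaks the 4 libraries of 8 months lie below the 4 of 4 months, which the choice of the peaks from Gpr27 to Ran required.

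Only 18 distal peaks were lower. The call with the smallest p of all 284 was one of them, a peak whose nearest start is that of AU040972 but which lies in intron 30 of 57 of Nf1, the neurofibromin gene (chr11:79459704-79460504). Its level was 98.1 and 114 (WT) and 104 and 108 (SgshKO) at 4 months, and 39.2 and 23.6 (WT) and 26.7 and 54.0 (SgshKO) at 8 months, a fall to less than the lowest 4-month value in every 8-month library (log2 change -1.61 ± 0.22 (SE), limma adjusted p = 0.000508). It was called under all 20 alternatives, with adjusted p from 7.7e-07 to 0.0178. Others lay near Tcf12, an E-protein transcription factor (-0.86), 1190002N15Rik (-1.24), Basp1, a membrane protein of growth cones (-0.87), Ptprn2, a protein of dense-core vesicles (-0.99), and Foxo3 (-0.69).

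Among promoter peaks with a RefSeq window, those with many CG dinucleotides were called lower more often. A RefSeq promoter window with its start within 1000 bp of the peak centre was found for 17732 of the 22507 tested promoter peaks, for 118 of the 144 lower ones and for 23 of the 33 higher ones. That is 78.8% of the tested and 81.9% of the lower peaks. A comparison with all tested promoter peaks, or one for the higher peaks, is therefore void at a bar of 80%, and the values below describe only the peaks with a window. The windows of the lower peaks had a median GC content of 73.3% and a median of 38 CG dinucleotides, against 62.0% and 21 over the tested promoter peaks with one. The share of peaks called lower went from 0.112% in the class with the fewest CG dinucleotides (0 to 14) through 0.236% and 0.408% to 1.92% in the class with the most (31 to 67), the peaks being split into 4 classes of like size, and the median log2 change from 0.05 to -0.20. The CG pattern was looked for after the calls were seen. The share called lower also rose with the level of the mark. Over all 22507 tested promoter peaks in 4 classes by level, it went from 0% through 0.0711% and 0.462% to 2.03%. The median log2 change went from 0.05 in the weakest to -0.09 in the strongest class. The parts of CG number and of level in the calls were not tested apart.

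The level itself was higher at GC-rich than at GC-poor promoter peaks in every library, and less so at 8 months. The mean log2 level at the GC-richest promoter peaks exceeded that at the GC-poorest by 0.74 and 0.83 in the WT and 0.77 and 0.89 in the SgshKO libraries of 4 months, and by 0.56 and 0.61 in the WT and 0.59 and 0.56 in the SgshKO libraries of 8 months. The ages did not overlap (0.81 ± 0.07 against 0.58 ± 0.02, SD, n = 4 each; exact permutation test, two-sided, p = 0.0286, the smallest possible; adjusted p = 0.0476). This measure was chosen after the calls of the same libraries were seen, so its p is not an independent test of the CG pattern. In the inputs, GC-rich promoter peaks held 0.825 times the tags of GC-poor ones at 4 months and 0.697 times at 8 months, with 1 library per age. When the relation of level to GC content was taken out of each library before a fit to the 17732 promoter peaks alone, 134 peaks were lower and 34 higher, against 369 and 84 in the same fit without that step, and 110 of the lower peaks were shared. Of the 118 lower promoter peaks with a window, 48 were called, and the median was -0.60 in place of -0.69. All 118 remained below 0, which their choice as lower in the same libraries made nearly certain.

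**Figure D4:**
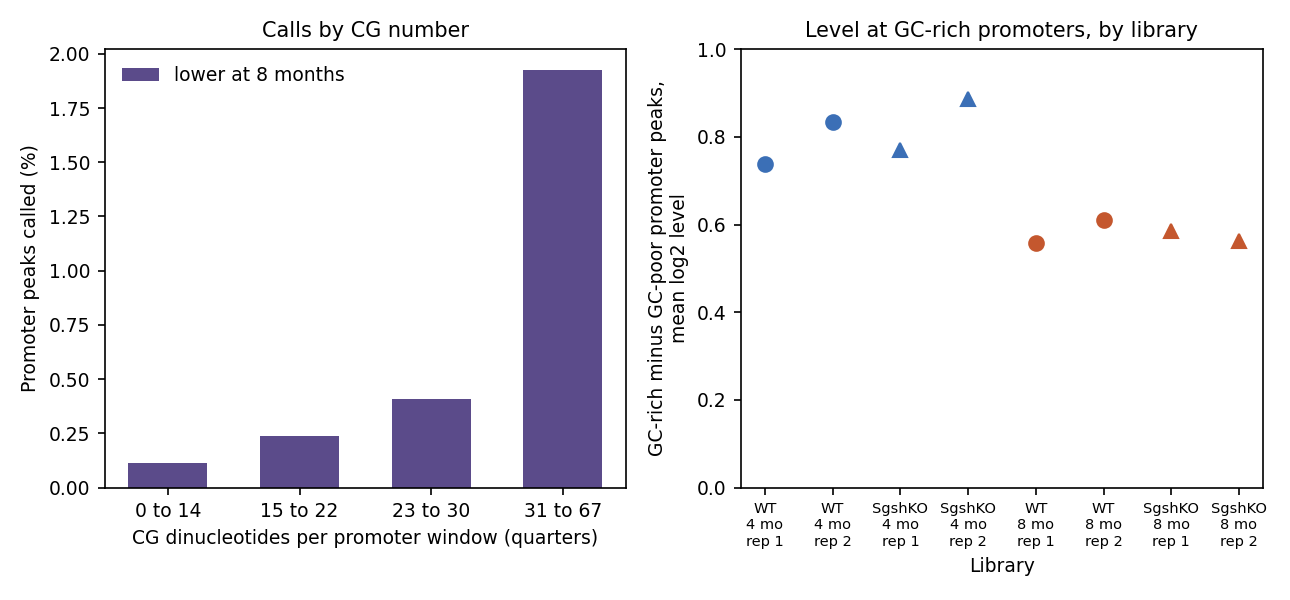
The left panel gives the percentage of promoter peaks called lower at 8 months, among those with a promoter window, by class of the number of CG dinucleotides in the promoter window, and the right panel the mean log2 level of GC-rich minus GC-poor promoter peaks in each library, with circles for WT, triangles for SgshKO, blue for 4 and orange for 8 months. The share called lower reaches 1.92% in the richest class, and all 8-month libraries lie below all 4-month libraries.

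Short motifs of activity-dependent factors were counted in the promoter windows on both strands. The cAMP response element TGACGTCA was in 0.971% of the 103 windows of lower promoter peaks and in 3.24% of the 11521 windows of tested promoter peaks, against 1.79% of all 32851 RefSeq windows. The AP-1 motif TGANTCA was in 3.88%, 4.20% and 7.81% of these sets. The E-box CAGATG was in 4.85%, 10.9% and 17.2%, and the E-box CAGCTG in 10.7%, 15% and 16.3%. The MEF2 motif was in 0.971%, 2.88% and 3.69%, and the EGR motif GCGTGGGCG in 0.971%, 1.32% and 0.612%. These are counts of letters in 300-base windows, and 1 window makes up the smallest shares of the lower set. The sets also differ in base composition, with a median GC content of 73.3%, 62.0% and 52.7%. The shares are not matched for it, so they do not show a loss of motifs at the lower peaks.

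Peaks next to a lower promoter peak were mostly below 0 too. Among the 207 tested peaks centred within 1 kb of a lower promoter peak, many of them overlapping it, the median log2 change was -0.44 and 88.4% were below 0. At 1 to 3 kb the median over 119 peaks was 0.09 and 42.0% were below 0, and at 3 to 10 kb the median over 179 peaks was 0.05, close to 0.06 for all tested peaks. Around the higher promoter peaks the medians were 0.37 over 49, 0.29 over 71 and 0.16 over 145 peaks at the same distances, with 93.9%, 85.9% and 61.4% above 0. The difference between the profiles was not tested, and the first distance class shares tags with the called peaks.

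**Figure D5:**
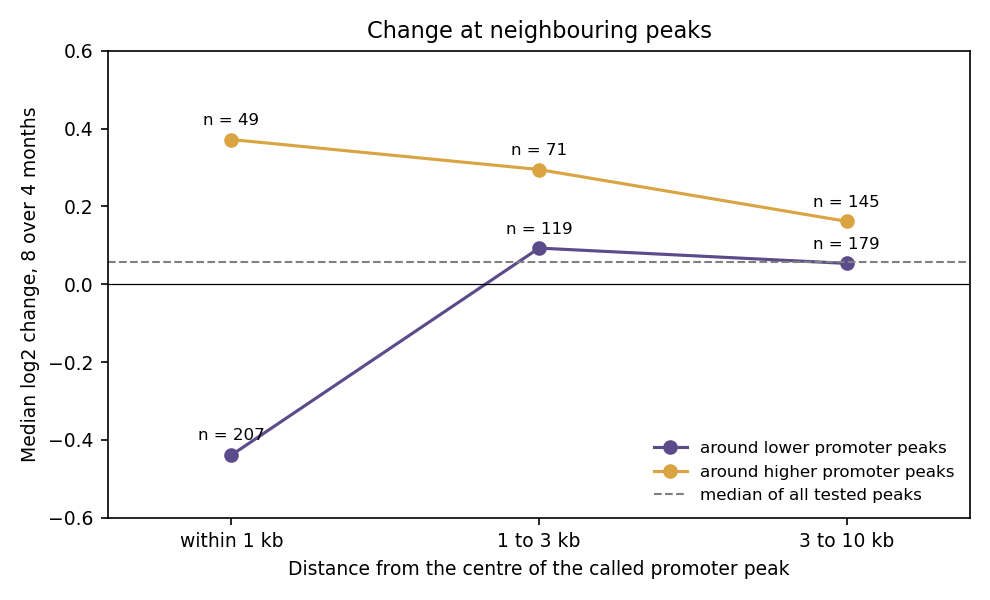
Points give the median log2 change (8 over 4 months) of tested peaks within 1 kb, at 1 to 3 kb and at 3 to 10 kb of promoter peaks called lower (purple) or higher (yellow), with the number of peaks beside each point and a dashed line at the median of all tested peaks. Around lower promoter peaks the median goes from -0.44 to 0.09 beyond 1 kb, while around higher ones it stays at 0.16 or above.

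Most lower peaks lay at sites that are also listed in the tables of other brain cells. At an overlap of at least 400 bp, 79.6% of the lower peaks coincided with a peak of the oligodendrocyte table and 78.4% with one of the microglial table, against 33.7% and 30.3% of all tested peaks and 29.5% and 34.4% of the higher peaks. Among promoter peaks alone the shares were 85.4% and 84.7% for the lower, 73.5% and 73.6% for all tested and 51.5% and 48.5% for the higher peaks. None of these shares is matched for level. The median level was 136 at the lower, 103 at the higher and 22.2 at all tested peaks, and its part in the overlap was not tested. The inputs were low at both kinds of site, with medians of 2.03 and 2.54 tags per 10000000 at the higher and 1.35 and 1.09 at the lower peaks in the 4- and 8-month inputs.

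Of genes that mark neuronal subtypes, the promoter peak nearest the annotated start was not called in any tested gene, though Pde10a had the called promoter peak at another start given above. Of 18 excitatory, 12 inhibitory, 11 striatal and 7 hippocampal and thalamic marker genes tested at that peak, 0 passed limma's threshold in either direction, with 7, 2, 2 and 0 at an unadjusted p under 0.05. Over all promoter peaks 0.786% were called in either direction, so 0 calls in lists this small say little. Of all 98038 tested peaks, 10346 had an unadjusted p under 0.05 by limma. These shares also apply to the further lists below. The summed level of the excitatory promoters was 1623 to 1799 at 4 months and 1765 to 1992 at 8 months, and 10 of 18 log2 changes were above 0. That of the inhibitory promoters was 254 to 394 and 206 to 289.5, and 3 of 12 were above 0. Neurod2, a transcription factor of cortical excitatory neurons, had 147 to 179.6 at 4 months and 213 to 253 at 8 months (log2 change 0.42 ± 0.12 (SE), limma adjusted p = 0.131), and Dlx1, a factor of inhibitory neurons, 13.4 to 28.4 at 4 months and 8.61 to 12.7 at 8 months (log2 change -0.88 ± 0.38 (SE), limma adjusted p = 0.389), and neither passed. The nearest promoter peaks of genes of oxidative phosphorylation (20 tested), of interferon response and antigen presentation (8), of immature neurons (8) and of the circadian clock (17, without Per1, which was listed as activity-regulated) also had 0 calls by limma, with 0, 0, 1 and 4 at an unadjusted p under 0.05, though a distal peak near the clock gene Cry2 rose (49.7 to 60.5 at 4 months and 98.8 to 106 at 8 months; log2 change 0.86, limma adjusted p = 0.023).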

How the data were processed

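H3K27ac ChIP-seq of sorted neuronal nuclei was analysed in 8 libraries, with 1 input library per age beside them. The authors deposited 1 table of signal per peak, with tags in 800-bp windows normalised to 10000000 tags per library, per the file headers. Bowtie2, HOMER, DESeq2 and the build mm10 are named in the submitters' processing notes, without their role here. The values are multiples of 1 tag at 4 months and of 0.5 tags at 8 months: 100% of low values, up to 200 steps, came out as whole numbers of steps within 0.02 of a step.

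Because the unit is a normalised signal, limma 3.58.1 (R 4.3.3) on log2(value + 1) was the main test, after TMM scaling and edgeR's filter on low values (filterByExpr), with age and genotype as terms and Benjamini-Hochberg adjustment over all tested peaks. edgeR 4.0.16 and DESeq2 1.42.0 on the recovered tags were alternatives, as were other scalings, filters and pseudocounts and leaving out each library. The fit was also tested on simulated data. Peaks named in the text were the 6 promoter and 6 distal peaks with the smallest p in each direction whose ages did not overlap, 1 per gene, fixed genes and called members of the gene lists. All other genes named were chosen after their values were seen. The members and lists were chosen with earlier results of these data known. The 2 replicate numbers did not pair the samples (6 correlations from -0.0253 to 0.0162). Promoter sequences came from RefSeq (GRCm38.p6). Total tags per library and their spread limit the precision at weak peaks. One result among the synaptic genes is not reported here.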

Additional observations from a re-analysis of the deposited data

Results flagged for a closer look

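In 14 of 124 groups of 4 libraries of 1 age, the highest or lowest library lay far from the other 3; chance gives about 1 in 20. There were 5 such groups at 4 months and 9 at 8 months.

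At 4 months, Gpr27 was 119.7 in WT replicate 1 (others 166.4 to 169.0), Npas4 was 199 in WT replicate 2 (others 162 to 168), and the Nr4a1 start-site peak was 107 in SgshKO replicate 2 (others 178 to 192). Neurod2 was 147 in WT replicate 2 (others 179 to 179.6), and Irf8, a microglial gene, was 1.67 in WT replicate 2 with 0 in the others.

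At 8 months, WT replicate 1 was low at Hspa8 (376 at the peak at -875 bp, others 417 to 423), at Pde10a (153, others 261 to 265) and at Gramd1b (144, others 263 to 277). WT replicate 2 was low at Ypel5 (136, others 156 to 157). SgshKO replicate 1 was low at Dbp, a clock-controlled gene (89.5, others 127 to 133), and at the Hspa8 peak at -348 bp (173, others 195 to 198). SgshKO replicate 2 was low at Gpr27 (68.4, others 76.8 to 78.5) and high at Ptprn2 (55.2, others 44.9 to 46.3) and Sox9 (46.7, others 39.2 to 40.3).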

How the results depend on the processing

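The 284 peaks called for age over both genotypes became 550 with a pseudocount of 5, 142 with no filter on low values, 461 with library weights, 47 with libraries thinned to the smallest and 1378 with DESeq2, and ran from 6 to 509 with 1 library left out. Age within WT gave 7 calls with library weights, 21 with DESeq2 and 0 to 221 with 1 library left out. Age within SgshKO gave 27 with a pseudocount of 5, 47 with library weights, 26 with edgeR, 306 with DESeq2 and 0 to 626 with 1 library left out. The interaction gave 0 to 10 with 1 library left out. The cause of these moves was not tested. With the replicate number as a block, 344 peaks were called over both genotypes and 1 within SgshKO; the numbers do not pair the samples. With GC content taken out, an alternative chosen after seeing the data, 134 lower and 34 higher promoter peaks were called.

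Some peaks that were not called changed sign. With thinned libraries the log2 change was -0.0381 at Npas4, 0.0604 at Slc17a7 and 0.0467 at Sgsh, and edgeR gave -0.00739 at Drd2. With 1 library left out it ran from -0.0942 to 0.17 at Npas4, -0.19 to 0.0047 at Arc, -0.0572 to 0.24 at the Nr4a1 start site, -0.14 to 0.0047 at Slc17a7, -0.44 to 0.0061 at Pvalb, -0.22 to 0.68 at Drd2 and -0.57 to 0.20 at Sgsh.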
